A study of Homo sapiens with 6 samples.

Results

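Protein folding in the endoplasmic reticulum (ER) was followed through 34 genes chosen by symbol: chaperones of the ER lumen, enzymes that make disulfide bonds, lectin chaperones, components of ER-associated degradation (ERAD), subunits of the translocon and the stress sensors of the unfolded protein response. Of these, 32 were measured, each by 1 probe set among the 16965 on the array, and expression of HSP90B1 and PDIA5 was not analysed here. The cells were MDA-MB-231, a human line of triple-negative breast cancer, given short hairpin RNAs by lentivirus and kept under 2.5 µg/ml puromycin in RPMI with 10% serum. The groups were a control hairpin (shNCT) and a pair of hairpins against S100A10, a small calcium-binding-family protein that pairs with annexin A2 (shS100A10_1 and shS100A10_5), with 2 arrays of total RNA each. The labels do not say whether the cells were pools or clones. Nor do they say that the arrays within a group were from different cultures, and p-values here therefore describe the spread of these arrays alone, which may be technical.

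Proteins that enter the secretory pathway pass through the SEC61 channel into the ER, where the HSP70-type chaperone BiP, encoded by HSPA5, and its partners help them fold, while disulfide isomerases and the lectins calnexin and calreticulin act on cysteines and glycans. Proteins that fail to fold are pulled back to the cytosol and degraded through ERAD. When unfolded protein builds up, the sensors ATF6, IRE1 (encoded by ERN1) and PERK (encoded by EIF2AK3) start the unfolded protein response, which raises transcription of many of the genes described here.

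Part of that transcription runs through the ER stress element, and its letters are shown first. Both the element and the genes were picked as parts of this response, so the shares below describe the promoters and are not a test. The RefSeq promoter table of build GRCh38.p14 (250 bases before to 50 bases after each start) held windows for 31 of the 34 genes. The element, CCAAT and CCACG with 9 free bases between them, was searched on both strands and was found in 7 of these 31 genes (22.6%), against 25 of 27305 genes in the whole table (0.0916%) and 0.0769% of its windows. The 7 were HSPA5, HSP90B1, CRELD2, PDIA6, ERO1B, CALR and CANX. A shorter form, ATTGG and CCACG with 1 free base between them, lay in 3 of the 31 genes (HYOU1, SDF2L1 and HERPUD1). In the whole table it lay in 19 of 27305 genes (0.0696%). The core letters CCACG, which both forms contain, were in 71% of the 31 genes and 42.1% of all genes, and TGACGT, searched on its own, was in 19.4% and 9.64%. In the stretches below, written 5′ to 3′ on the gene's own strand, capitals mark the CCAAT and CCACG ends of the element or their reverse complements, ATTGG and CGTGG. Each stretch ends before the annotated start of transcription.
HSPA5, chr9:125241379-125241421, minus strand: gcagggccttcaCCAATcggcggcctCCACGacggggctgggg
CALR, chr19:12938372-12938414, plus strand: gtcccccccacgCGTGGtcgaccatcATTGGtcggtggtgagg
PDIA6, chr2:10812841-10812883, minus strand: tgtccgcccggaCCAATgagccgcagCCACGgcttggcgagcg
CRELD2, chr22:49918542-49918584, plus strand: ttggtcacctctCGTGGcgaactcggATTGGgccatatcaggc
ERO1B, chr1:236282171-236282208, minus strand: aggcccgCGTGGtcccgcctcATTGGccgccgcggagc
HYOU1, chr11:119057368-119057402, minus strand: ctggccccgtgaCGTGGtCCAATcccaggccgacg
HYOU1, chr11:119057262-119057296, minus strand: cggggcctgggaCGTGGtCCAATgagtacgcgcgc
SDF2L1, chr22:21642102-21642136, plus strand: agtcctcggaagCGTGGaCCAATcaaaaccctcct
HERPUD1, chr16:56932013-56932047, plus strand: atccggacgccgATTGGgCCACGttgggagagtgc

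The HSPA5 element lay 66 to 48 bases before the start and that of PDIA6 86 to 68 bases before. DNAJB9 and ERP29, the members that differed most from control with shS100A10_5 (below), held neither form in their windows. In their stretches capitals mark CCACG and CCAAT on either strand where they occur singly; the ERP29 stretch has CCACG alone, once on each strand. A match is a description of letters and not evidence that a factor binds there.
DNAJB9, chr7:108569788-108569859, plus strand: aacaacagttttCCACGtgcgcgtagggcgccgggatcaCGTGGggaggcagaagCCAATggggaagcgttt
ERP29, chr12:112013304-112013380, plus strand: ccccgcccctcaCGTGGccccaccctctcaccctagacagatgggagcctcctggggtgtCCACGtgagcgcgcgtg

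Before the members, the labels were checked. The targeted gene S100A10 had log2 intensities of 16.44 and 16.50 in control cells, 10.94 and 10.59 under shS100A10_1, and 13.73 and 13.21 under shS100A10_5. It was thus lower than in control in every array labelled as a knockdown. Its probe set was still bright under shS100A10_5, where the arrays' median log2 intensities were 7.86 and 7.87. The arrays' median intensities ran from 232 to 238. Of the markers for this cell type, all 6 genes of a mesenchymal breast cancer line lay above the 95th percentile, with VIM at 16.50 and 16.49 on the control arrays, and 2 of 6 measured luminal markers, CDH1 (3.51 and 4.05) and FOXA1 (4.90 and 4.68), lay below the lower quartile of 4.97. The luminal markers KRT8 (15.45 and 15.32) and KRT18 (13.88 and 14.03) were bright, EPCAM was at 9.87 on both control arrays and GATA3 at 6.84 and 7.01. Of 4 measured plasma cell markers, secretory cells rich in these chaperones, MZB1 was at 5.63 and 5.38, IRF4 at 5.87 and 5.72, and POU2AF1 at 3.98 and 4.26, while SDC1 was bright at 10.37 and 10.52. Of 5 measured leukocyte markers, LYZ rose with both hairpins (log2 change 1.56 and 1.35, adjusted p = 0.00869 and 0.00865 by limma). The other leukocyte markers did not pass. Their changes were 0.27 and 0.25 for PTPRC, -0.16 and 0.08 for CD3E, -0.42 and -0.13 for CD14, and 0.24 and -0.36 for CD68. In control cells CD68 was bright, at 12.67 and 12.62. SDC1 (-1.29) and LGALS1 (-0.87), of the plasma cell and mesenchymal markers, fell with shS100A10_5 (limma, adjusted p = 0.0107 and 0.0483). With shS100A10_1 their changes were -0.88 and -0.06, neither passing (limma, adjusted p = 0.143 and 0.971). Both SDC1 arrays of shS100A10_1 lay below both control arrays. The measurements are of bulk RNA, in which fewer cells of a type and less RNA per cell cannot be told apart.

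In control cells most of the set was bright. On the shNCT arrays 21 of the 32 probe sets lay above the 75th percentile of all probe sets, 12 above the 90th and 0 below the 25th, with a median percentile of 84.6. These percentiles describe the brightness of probe sets, which also depends on their probes, and do not rank the genes by abundance. The lectin chaperone genes CALR (percentile 99.8) and CANX (99.4) and the disulfide isomerase gene P4HB (98.7) stood highest. HSPA5 stood at 97.7, the oxidase gene ERO1A at 97.7 and HYOU1, which encodes a large relative of HSP70 chaperones that helps BiP exchange nucleotide, at 97.2. The 4 below the middle of the array were DERL3 (39.5), ERO1B (42.1), SDF2L1 (45.3) and EIF2AK3 (49.7). The plot of log2 intensities by gene and array shows these levels together with those of the hairpin groups.

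**Figure D1:**
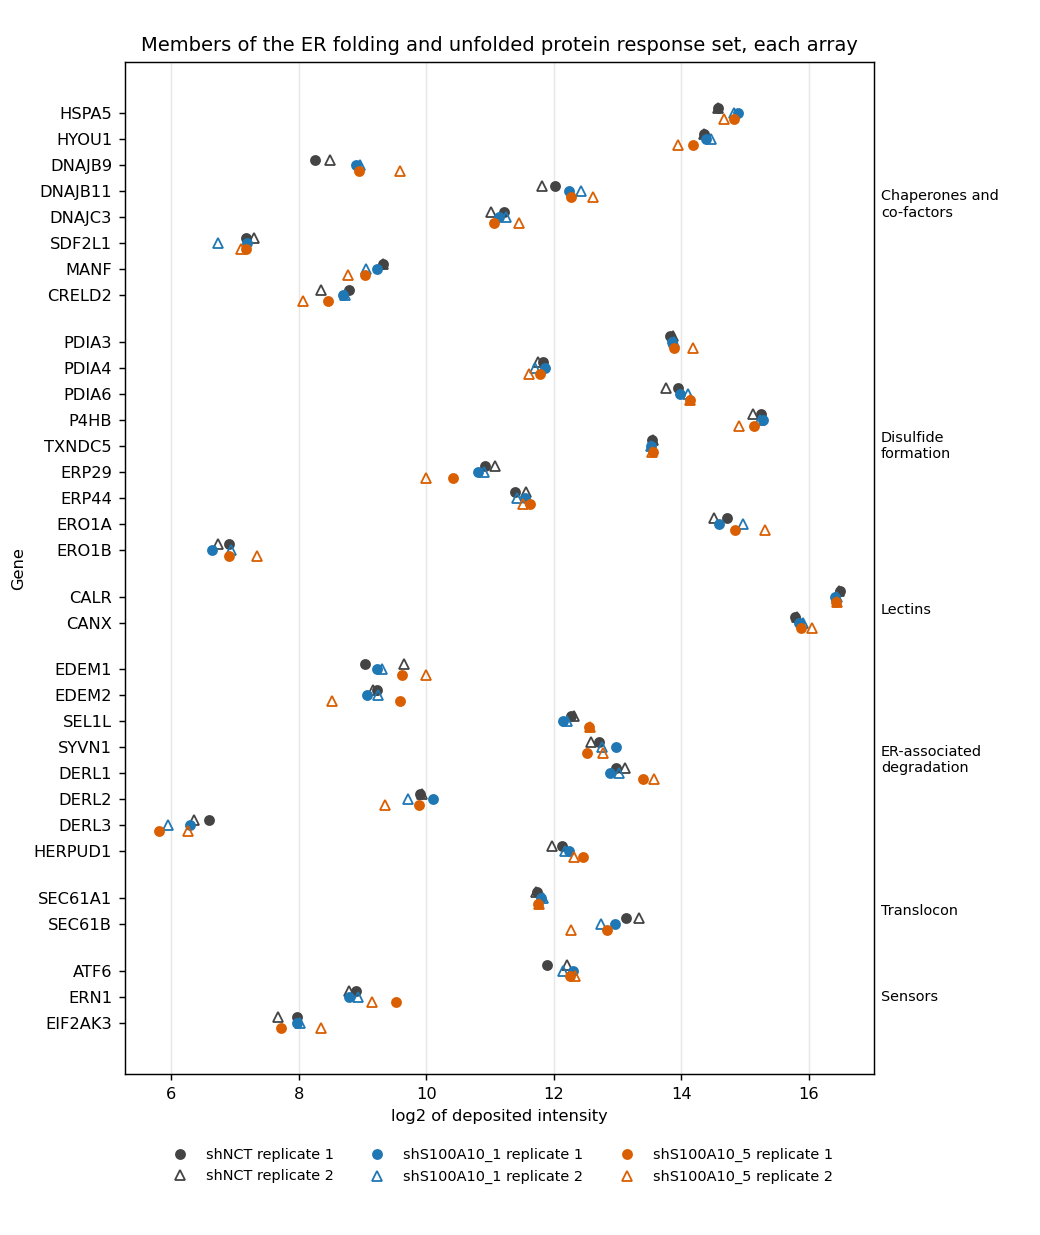
The log2 of the deposited intensity (horizontal axis) is plotted for each of the 32 measured genes (vertical axis, grouped by role), with 1 symbol per array; colour gives the hairpin group, and filled circles are replicate 1 and open triangles replicate 2. For genes such as CALR, TXNDC5 and SEC61A1 the 6 arrays lie almost on top of each other, while those of DNAJB9, ERP29 and SEC61B spread more widely. The hairpin arrays lie above both control arrays for DNAJB9 and below them for SEC61B, and the hairpin groups overlap for both genes. For ERP29 the shS100A10_5 arrays lie below all others.

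No member passed the test in any of the 3 comparisons. Of the 32, 0 rose and 0 fell with shS100A10_1 (limma, adjusted p between 0.538 and 0.996), while 0.189% of all 16965 probe sets passed, 0.1% higher and 0.0884% lower. With shS100A10_5, 0 rose and 0 fell (limma, adjusted p between 0.0542 and 0.999) against 3.18% of all probe sets, 1.43% higher and 1.75% lower. Between the hairpins 0 differed (limma, adjusted p between 0.101 and 0.973) against 2.91% of all probe sets, 1.43% higher and 1.48% lower with shS100A10_5. A count of 0 among 32 genes is near these backgrounds. Both hairpin groups were compared with the same 2 control arrays, so their values are given side by side and not as separate evidence.

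At an unadjusted p under 0.05 by limma, 1 member was higher and 0 lower with shS100A10_1 (3.12% of members), against 8.44% of all probe sets, 4.28% higher and 4.16% lower. With shS100A10_5, 4 were higher and 3 lower (21.9%), against 21% of all probe sets, 10.7% higher and 10.3% lower. Between the hairpins 4 were higher and 1 lower with shS100A10_5 (15.6%), against 19.9%, 10.1% higher and 9.8% lower. The members' shares were thus near or below the background.

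The arrays of shS100A10_1 and control did not overlap for 10 members on the high side and 7 on the low side, against 21.9% and 20.5% of all probe sets (42.4% together). For shS100A10_5 and control these were 13 and 8 members, against 26.7% and 23.8% (50.5% together), and between the hairpins 8 and 6, against 25.6% and 23.4% (49% together). As shares of the 32 members, 53.1%, 65.6% and 43.8% did not overlap. The median log2 change of the members was 0.02 with shS100A10_1, 0.11 with shS100A10_5 and 0.05 between the hairpins, and over all probe sets it was 0.01, 0.02 and 0.02. Without replicate 2 of shS100A10_5 the median with that hairpin was 0.0326, and without shNCT replicates 1 and 2 it was 0.0707 and 0.0502.

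The changes were also bounded. The 95% interval of the change lay inside 2-fold in both directions for 31 of 32 members with shS100A10_1, 29 with shS100A10_5 and 30 between the hairpins. The exceptions were DNAJB9 with shS100A10_1, DNAJB9, ERP29 and SEC61B with shS100A10_5, and ERP29 and EDEM1 between the hairpins. Each interval rests on 2 arrays per group and a variance shared across probe sets. The plot of changes with their intervals shows this for every gene.

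**Figure D2:**
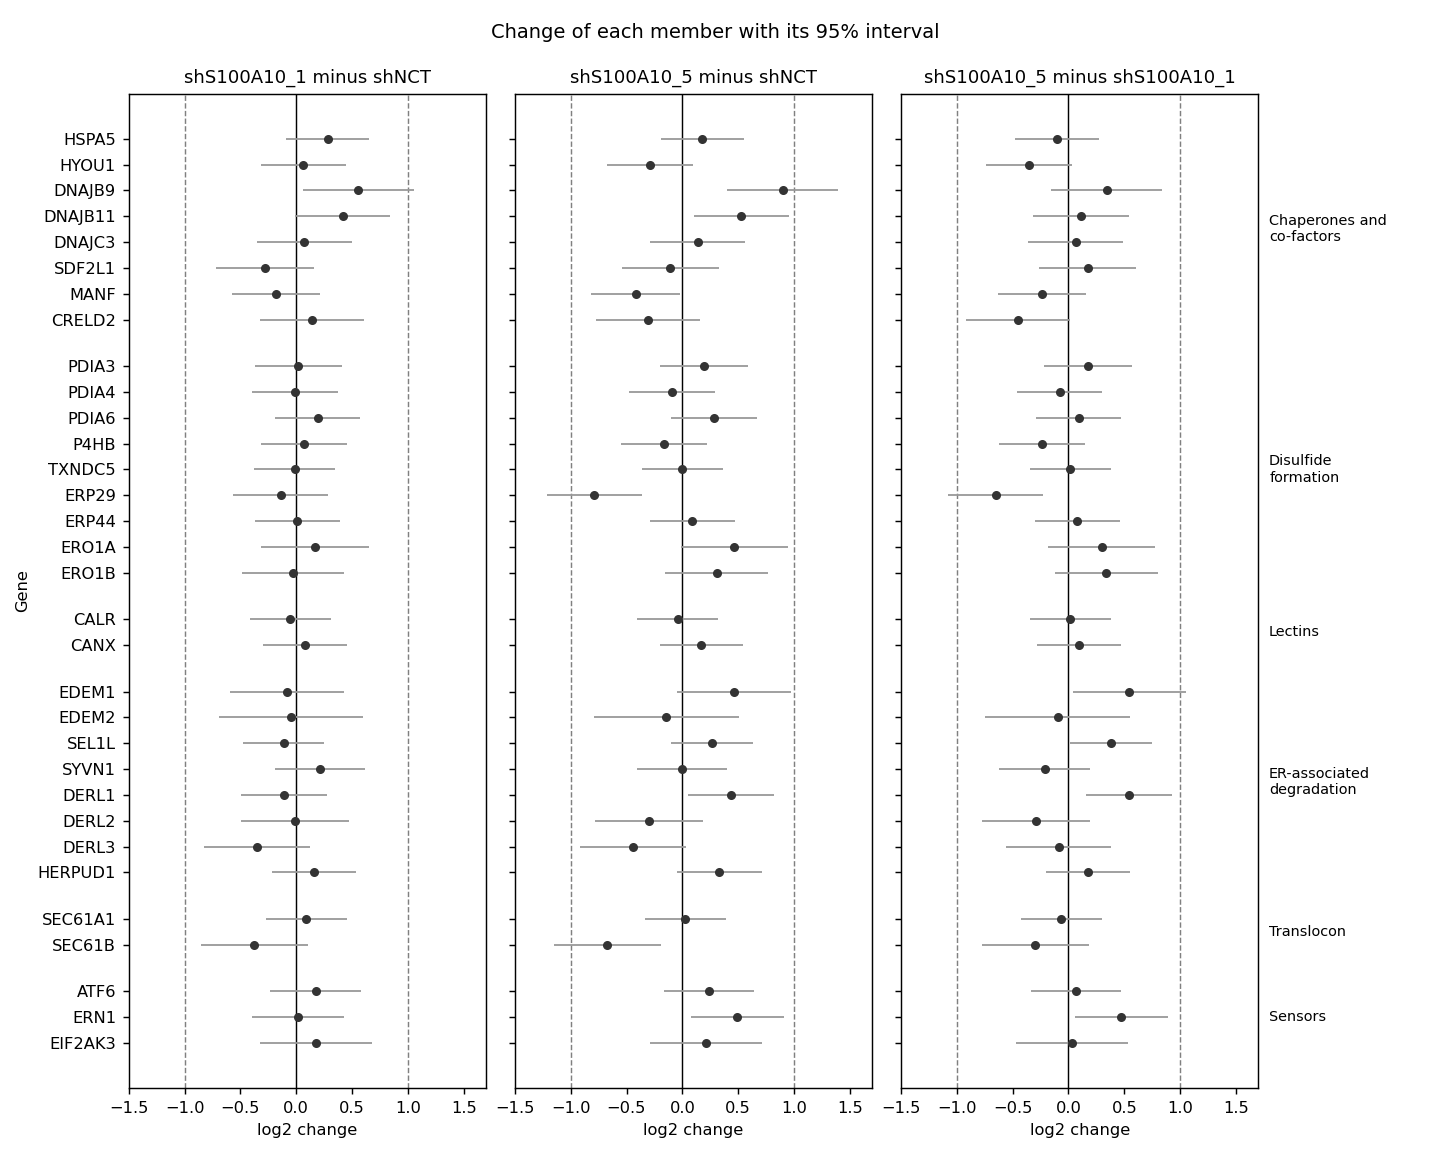
The log2 change of each measured gene (point) with its 95% interval from the limma fit (bar) is drawn for the 3 comparisons, 2 arrays per group. Dashed lines mark a 2-fold change either way. All but 1, 3 and 2 of the 32 intervals stay between the dashed lines in the left, middle and right panels, and DNAJB9 lies farthest right and ERP29 farthest left in the middle panel.

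Among the chaperones, BiP itself was close to control. HSPA5 had a log2 intensity of 14.58 on both control arrays, 14.89 and 14.83 under shS100A10_1, and 14.84 and 14.68 under shS100A10_5. All 4 hairpin arrays were thus above both control arrays, by small amounts. Its log2 change was 0.28 (95% interval -0.09 to 0.65) with shS100A10_1 and 0.18 (-0.19 to 0.55) with shS100A10_5, so that a 2-fold rise of this standard marker of ER stress lay outside both intervals (limma, adjusted p = 0.722 and 0.593). HYOU1 was at 14.36 and 14.36 in control, 14.39 and 14.46 with shS100A10_1, and 14.19 and 13.95 with shS100A10_5, with a change of -0.29 (SE 0.17) for the last group (limma, adjusted p = 0.374).

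Of the chaperone group, the J-domain genes DNAJB9 and DNAJB11 had the highest log2 changes with either hairpin. DNAJB9, which encodes a BiP co-chaperone that also binds the sensor IRE1 and holds it inactive, was at 8.26 and 8.48 in control, 8.90 and 8.95 with shS100A10_1, and 8.94 and 9.59 with shS100A10_5. Every hairpin array lay above both controls, and replicate 2 of shS100A10_5 stood apart from the other 3. Its change was 0.56 (SE 0.22) with shS100A10_1 (limma, adjusted p = 0.538) and 0.90 (SE 0.22, 1.86-fold; 95% interval 0.40 to 1.40) with shS100A10_5, just outside the threshold (limma, adjusted p = 0.0598). This value passed in 4 of 14 alternatives, with adjusted p from 0.0224 to 0.233 over all of them by limma, and without replicate 2 of shS100A10_5 the change was 0.57.

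DNAJB11, which encodes a J-domain protein that binds unfolded clients and hands them to BiP, was likewise above both controls on every hairpin array. Its levels were 12.02 and 11.81 in control, 12.24 and 12.43 with shS100A10_1, and 12.27 and 12.62 with shS100A10_5, giving log2 differences from control of 0.42 and 0.53, each with an SE of 0.19 (limma, adjusted p = 0.601 and 0.149). DNAJC3, an inhibitor of PERK, had changes of 0.07 and 0.14, with overlapping arrays in both comparisons. SDF2L1, which works with the J-domain proteins, had changes of -0.28 and -0.11.

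MANF and CRELD2, small ER stress-induced proteins that can be secreted, lay on the other side with shS100A10_5. MANF was at 9.32 and 9.33 in control, 9.23 and 9.05 with shS100A10_1, and 9.04 and 8.77 with shS100A10_5, a change of -0.42 (SE 0.18) for the last group (limma, adjusted p = 0.214). CRELD2 had a change of -0.31 with shS100A10_5 and of -0.45 between the hairpins (limma, adjusted p = 0.441 and 0.266), but its 2 control arrays, at 8.79 and 8.34, were far apart. Over the 8 measured chaperone genes, 6 had a positive change with shS100A10_1 and 4 with shS100A10_5, and 0 passed by limma in the 3 comparisons. At an unadjusted limma p under 0.05, 1 was higher with shS100A10_1, 2 higher and 1 lower with shS100A10_5, and 0 between the hairpins. Of all probe sets, 8.44%, 21% and 19.9% were at that level in the same order.

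Of the 9 measured genes of disulfide formation, most hardly moved between arrays. PDIA3, the isomerase that works with the lectin chaperones, PDIA4, PDIA6, P4HB and TXNDC5, all isomerases with thioredoxin-like domains, had changes between -0.16 and 0.28 in both comparisons with control. For TXNDC5 the 6 arrays lay between 13.53 and 13.56. ERP44, which holds the oxidases in the early secretory pathway, had changes of 0.01 and 0.09.

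ERP29 was the exception and the lowest of all members with shS100A10_5. This thioredoxin-fold protein of the ER, which lacks the isomerase active site, was at 10.92 and 11.07 in control, 10.81 and 10.90 with shS100A10_1, and 10.42 and 9.996 with shS100A10_5. The shS100A10_5 arrays were below the other 4 arrays without overlap. The change was -0.79 (SE 0.19; 95% interval -1.22 to -0.36), which missed the threshold (limma, adjusted p = 0.0542), and -0.65 against shS100A10_1 (SE 0.19; limma, adjusted p = 0.101). It passed in 3 of 14 alternatives for the comparison with control (limma, adjusted p from 0.015 to 0.29), and without replicate 2 of shS100A10_5 the change was -0.58.

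The oxidases that feed disulfides to the isomerases were on the high side with shS100A10_5, neither passing the test. ERO1A was at 14.71 and 14.51 in control, 14.60 and 14.96 with shS100A10_1, and 14.84 and 15.32 with shS100A10_5, a change of 0.46 (SE 0.22; limma, adjusted p = 0.253). ERO1B had a change of 0.31 there (limma, adjusted p = 0.436) and of -0.03 with shS100A10_1.

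The lectin chaperones were the most even of the role groups. CALR stayed between 16.42 and 16.49 on the 6 arrays, with changes of -0.05 and -0.04. CANX lay between 15.79 and 16.06, with changes of 0.08 (95% interval -0.30 to 0.45) and 0.17 (-0.20 to 0.54).

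The ERAD genes were split with shS100A10_5. DERL1, a derlin of the retrotranslocation machinery, was at 12.98 and 13.12 in control, 12.88 and 13.02 with shS100A10_1, and 13.41 and 13.57 with shS100A10_5. The last group lay above the other 4 arrays, with a change of 0.44 from control (SE 0.17; limma, adjusted p = 0.183) and 0.54 from shS100A10_1 (SE 0.17; limma, adjusted p = 0.121). SEL1L, the scaffold of the HRD1 ubiquitin ligase, was at 12.27 and 12.32, then 12.15 and 12.21, then 12.55 and 12.57 in the same order, with a difference of 0.38 between the hairpins (SE 0.16; limma, adjusted p = 0.235).

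EDEM1, a mannosidase-like protein that marks misfolded glycoproteins, had a difference of 0.55 between the hairpins (SE 0.23; limma, adjusted p = 0.22), while its control arrays, at 9.04 and 9.65, spread more widely than its shS100A10_1 arrays, at 9.22 and 9.30. HERPUD1, a membrane protein of the HRD1 complex and a common stress target, was at 12.12 and 11.98 in control, 12.24 and 12.18 with shS100A10_1, and 12.45 and 12.31 with shS100A10_5. Its arrays did not overlap those of control for either hairpin, and its changes were 0.16 and 0.33 (limma, adjusted p = 0.88 and 0.298).

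The other derlins were on the low side with shS100A10_5, DERL2 with a change of -0.30 and DERL3 with -0.44 (limma, adjusted p = 0.477 and 0.268). SYVN1, which encodes the HRD1 ligase, had changes of 0.21 and -0.003 with shS100A10_1 and shS100A10_5. EDEM2, a mannosidase-family partner in the same step, had the widest replicate gap of the set with shS100A10_5, 9.59 against 8.52, so its change of -0.14 (95% interval -0.79 to 0.50) is little constrained. In all, 4 of the 8 ERAD genes had a positive change with shS100A10_5 and 2 with shS100A10_1.

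The translocon genes differed from each other. SEC61A1, the channel subunit, stayed between 11.72 and 11.83 on the 6 arrays. SEC61B, a small subunit anchored in the membrane beside it, was at 13.13 and 13.33 in control, 12.97 and 12.74 with shS100A10_1, and 12.83 and 12.28 with shS100A10_5. All hairpin arrays of SEC61B were below both controls. Its changes were -0.38 (SE 0.22; limma, adjusted p = 0.705) and -0.67 (SE 0.22; 95% interval -1.15 to -0.19; limma, adjusted p = 0.112), and without replicate 2 of shS100A10_5 the latter was -0.40. The latter passed in 2 of 14 alternatives (limma, adjusted p from 0.0269 to 0.425).

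The 3 sensors were not lower in any comparison. ERN1, the IRE1 gene, was at 8.90 and 8.79 in control, 8.79 and 8.93 with shS100A10_1, and 9.52 and 9.15 with shS100A10_5. The shS100A10_5 arrays were above the other 4, with a change of 0.49 from control (SE 0.19; limma, adjusted p = 0.169) and 0.47 from shS100A10_1 (limma, adjusted p = 0.197). ATF6 had changes of 0.17 and 0.24 and EIF2AK3, the PERK gene, of 0.18 and 0.21 (limma, adjusted p between 0.499 and 0.901). RNA levels of the sensors do not measure their activity, which depends on cleavage, splicing and phosphorylation.

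The 9 measured genes with either form of the stress element, printed above for all but CANX, did not stand out in their changes. Their median log2 change was 0.08 with shS100A10_1 and 0.17 with shS100A10_5, against 0.01 and 0.06 for the 20 measured members whose windows held neither. With shS100A10_5 they ran from -0.31 for CRELD2 to 0.33 for HERPUD1, 5 positive and 4 negative, and 0 of the 9 reached an unadjusted p under 0.05 by limma in any of the 3 comparisons, where 8.44%, 21% and 19.9% of all probe sets did. The 6 members at that level with shS100A10_5 that have a window (DNAJB9, DNAJB11, MANF, ERP29, SEC61B and ERN1) were among the 20. With groups this small, these counts set nothing apart from the 21% of all probe sets.

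Gene span moved with the changes of the members in the shS100A10_5 group. Across the 32 genes, Spearman's rho between the span of the gene and its log2 change was 0.475 with shS100A10_5, 0.448 between the hairpins and 0.17 with shS100A10_1, against 0.173, 0.192 and -0.0046 in that order over 15674 probe sets with a named gene. These are descriptions across genes that share arrays. The 16 shorter members (1.998 to 20.04 kb) had a median change of -0.14 with shS100A10_5, 5 positive and 11 negative, and the 16 longer ones (25.5 to 198 kb) a median of 0.23, 13 positive and 3 negative. The lower genes ERP29 (10.02 kb), SEC61B (8.33 kb), MANF (4.11 kb) and DERL3 (4.50 kb) are short, and DERL1, SEL1L, EDEM1, ERN1 and ERO1A are in the longer group. DNAJB9 is short (4.98 kb) and had the highest change. After a smooth trend over span was taken out of each array, the median change with shS100A10_5 was 0.06 in place of 0.11, and 0 members passed in any of the 3 comparisons by limma, as before. Over the 15674 probe sets, rho was also taken between span and each array's deviation from the 6-array average. For replicates 1 and 2 it was -0.135 and -0.0615 with shNCT, -0.207 and -0.00741 with shS100A10_1, and 0.0354 and 0.247 with shS100A10_5. This rho was thus higher in replicate 2 than in replicate 1 of every group. The part of span in the members' changes was otherwise not tested.

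**Figure D3:**
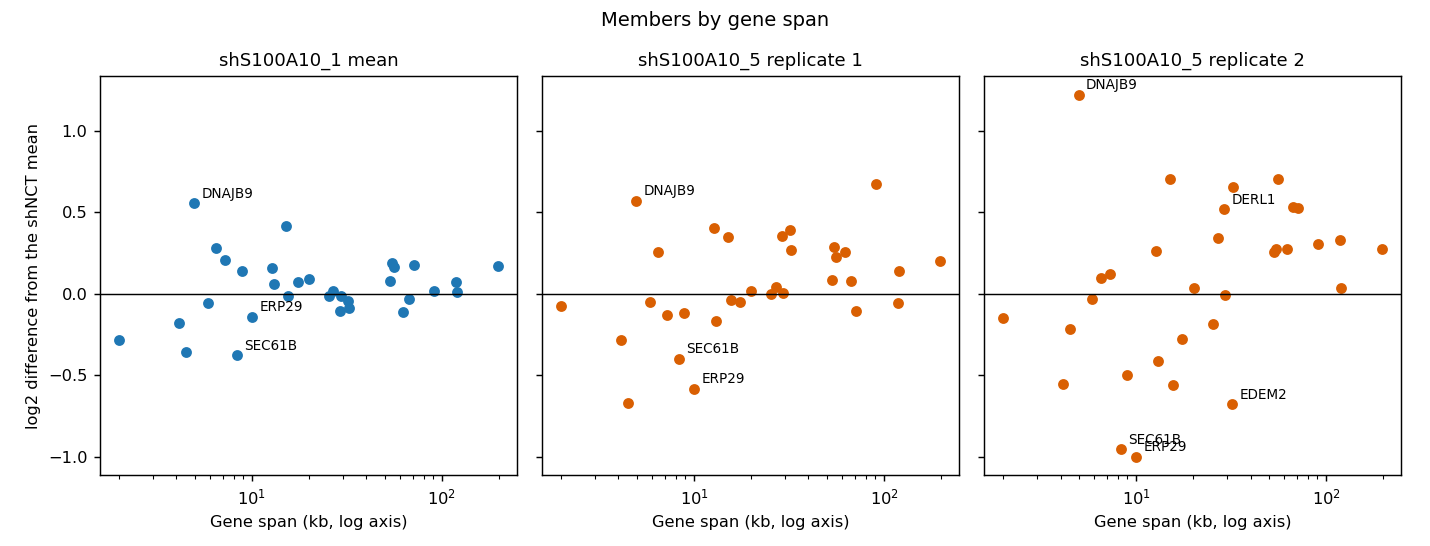
The log2 difference from the mean of the 2 control arrays (vertical axis) is plotted against gene span in kb (horizontal log axis) for the 32 members, as the mean of the shS100A10_1 arrays and for each shS100A10_5 array; each point is a gene. In replicate 2 of shS100A10_5 ERP29 lies lowest and DNAJB9 highest, at 1.22, and in replicate 1 the points run from -0.67 (DERL3) to 0.68 (ERN1).

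The rest of the pathway was read from 7 further lists with 85 measured genes. Of these 1 rose with shS100A10_1 and 0 fell, 4 rose and 1 fell with shS100A10_5, and 1 was higher and 2 lower with shS100A10_5 than with shS100A10_1 (limma, adjusted p under 0.05), beside the 0.189%, 3.18% and 2.91% of all probe sets. The median changes of the 85 were 0.06, 0.08 and 0.03.

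The PERK and ATF4 output genes held 2 of the rises with shS100A10_5 among 8 measured. ATF3, a stress-induced transcription factor, was at 7.12 and 6.92 in control, 6.76 and 6.58 with shS100A10_1, and 8.59 and 8.29 with shS100A10_5. It rose by 1.42 (SE 0.19, 2.68-fold; limma, adjusted p = 0.00865) with shS100A10_5, had a change of -0.35 with shS100A10_1 (limma, adjusted p = 0.67), and differed between the hairpins by 1.77 (limma, adjusted p = 0.00332). CHAC1, which degrades glutathione, rose by 0.80 (SE 0.19; limma, adjusted p = 0.0492) from 10.60 and 10.46 to 11.17 and 11.49, a call that held in 5 of 14 alternatives. ATF3's call was lost without shNCT replicate 1 (limma, adjusted p = 0.0508), without shNCT replicate 2 (0.0862) and without shS100A10_5 replicate 2 (0.0993). Its difference between the hairpins was lost without shS100A10_5 replicate 2 (1.92; limma, adjusted p = 0.0584).

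The other named genes of that arm did not pass. ATF4 itself had changes of 0.18 and -0.07, and DDIT3, which encodes the pro-apoptotic factor CHOP, of -0.30 and -0.03. TRIB3, a pseudokinase induced by both, had changes of -0.35 and 0.28 (limma, adjusted p between 0.444 and 0.951 for the 3 genes). Between the hairpins TRIB3 differed by 0.63 (limma, adjusted p = 0.107). Of the 8 genes of the list, 7 were higher with shS100A10_5 than with shS100A10_1 and 1, ATF4, was lower (median difference 0.44). At an unadjusted limma p under 0.05, 4 were higher and 0 lower between the hairpins, 50% against 19.9% of all probe sets. Against control, 2 were higher and 0 lower at that level with shS100A10_5 (25% against 21%). With shS100A10_1, 0 were higher and 0 lower (0% against 8.44%). XBP1, whose messenger RNA IRE1 splices, was at 10.79 and 10.50 in control and 11.23 and 10.89 with shS100A10_5, a change of 0.41 (limma, adjusted p = 0.261); a probe set summary does not separate the spliced form. Of the 8 measured genes in the list of further unfolded protein response transcription factors and ATF6-processing genes, 0 passed by limma. At an unadjusted limma p under 0.05, 1 was higher with shS100A10_1, 3 lower with shS100A10_5 and 1 lower between the hairpins. Of all probe sets, 8.44%, 21% and 19.9% were at that level in the same order. The smallest p of the list was that of ATF6B, with a difference of -0.58 between the hairpins (limma, adjusted p = 0.0907).

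In the wider disulfide isomerase family, AGR2 rose with both hairpins and was the 1 of 7 measured genes to pass the threshold. AGR2 encodes an isomerase of mucus-secreting and luminal epithelial cells, and its probe set was dim in control, at 5.12 and 5.54, against 7.39 and 7.28 with shS100A10_1 and 6.78 and 6.85 with shS100A10_5. It rose by 2.005 (SE 0.19; limma, adjusted p = 0.00199) and 1.48 (SE 0.19; limma, adjusted p = 0.00865). The first call held in all 14 alternatives; the second was lost without shNCT replicate 1 (limma, adjusted p = 0.0604) and without shS100A10_5 replicate 2 (0.0993). Of the luminal markers EPCAM had changes of 0.63 and 0.72 (limma, adjusted p = 0.326 and 0.0624), 6 of 8 luminal markers were measured, and the mean log2 level of these 6 was 9.08 and 9.16 in control, 8.96 and 9.11 with shS100A10_1, and 9.19 and 9.20 with shS100A10_5. The part of cell state in the AGR2 values was not tested.

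SIL1, which like HYOU1 exchanges nucleotide on BiP, differed between the hairpins. It was at 10.73 and 10.93 in control, 11.14 and 11.16 with shS100A10_1, and 10.32 and 9.77 with shS100A10_5, so that shS100A10_5 lay below shS100A10_1 (log2 difference -1.10, SE 0.21; limma, adjusted p = 0.0244). It was the 1 of 17 other chaperone and prolyl isomerase genes to pass in any comparison, its change from control with shS100A10_5 being -0.78 (limma, adjusted p = 0.0704). The call was lost without shS100A10_1 replicate 1 (limma, adjusted p = 0.0997) or 2 (0.0909) or shS100A10_5 replicate 2 (0.129). SIL1 spans 252 kb, so it is a long gene that was low with shS100A10_5.

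At the translocon, SSR4, a subunit of the complex that sits beside SEC61, fell by 0.87 with shS100A10_5 (log2 change -0.87, SE 0.19; limma, adjusted p = 0.0385), from 11.95 and 12.11 to 11.32 and 10.99. It was the 1 of 18 genes of the translocon, signal peptidase and oligosaccharyltransferase list to pass, and it differed between the hairpins by -0.80 at the edge of the threshold (limma, adjusted p = 0.0496), which 10 of 14 alternatives did not keep. SEC24A, a cargo adaptor of the vesicles that leave the ER, rose by 0.78 (SE 0.17; limma, adjusted p = 0.0448), from 10.53 and 10.69 to 11.27 and 11.49, the 1 of 12 genes of ER to Golgi transport to pass. With shS100A10_5, 4 of the 12 were higher and 3 lower at an unadjusted limma p under 0.05 (58.3% against 21% of all probe sets). Arrays did not overlap control for 8 on the high side and 3 on the low side (91.7% against 50.5%). At the same level, 0 were higher and 1 lower with shS100A10_1 (8.33% against 8.44%). Between the hairpins 3 were higher and 0 lower (25% against 19.9%). This list was not tested as a set. Without shNCT replicate 1, shNCT replicate 2 or shS100A10_5 replicate 2, the calls of SSR4 and SEC24A with shS100A10_5 were lost (limma, adjusted p = 0.133, 0.23 and 0.19 for SSR4 and 0.202, 0.194 and 0.192 for SEC24A). SEC24A kept its call in 7 of 14 alternatives and also lost it without either shS100A10_1 array (limma, adjusted p = 0.0576 each). Of the 15 other ERAD genes 0 passed by limma in the 3 comparisons. At an unadjusted limma p under 0.05, 1 was higher with shS100A10_5 and 0 differed in the other comparisons. Of all probe sets, 8.44% were at that level with shS100A10_1, 21% with shS100A10_5 and 19.9% between the hairpins. The smallest p of these ERAD genes was that of ERLEC1, a lectin that reads trimmed glycans. Its change was 0.50 with shS100A10_5 (limma, adjusted p = 0.14).

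**Figure D4:**
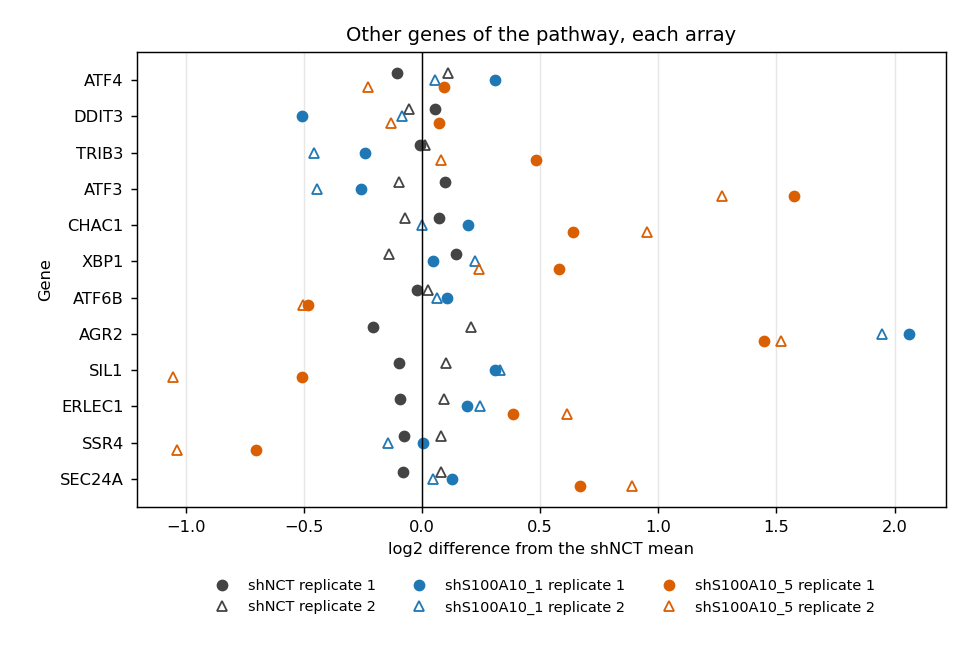
The log2 difference from the mean of the 2 control arrays is plotted for the 12 named genes of the further lists, with 1 symbol per array; colour gives the hairpin group, and filled circles are replicate 1 and open triangles replicate 2. AGR2 is high in all 4 hairpin arrays, ATF3 and CHAC1 are high with shS100A10_5, and SIL1 and SSR4 are low with shS100A10_5.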

How the data were processed

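RNA from 6 samples was labelled with biotin as whole-transcript cDNA, per the labels' protocols. The authors deposited 1 normalized intensity per probe set and array, made with Transcriptome Analysis Console per the submitters' processing notes; the sources used here do not give the background correction or normalization. Log2 of every value ended at 5 decimal places, and the sources used here give no detection calls or scan dates, so background and batch were not tested. Samples were grouped by title.

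Protein features, planned, were not analysed. Log2 intensities were fitted with limma 3.58.1 in R 4.3.3 (a mean per group, all 6 arrays, two-sided), adjusted by Benjamini-Hochberg over 16965 probe sets at 0.05. The fit was tested on simulated data. Names came from the platform annotation (15674 probe sets with 1 symbol, 0 with several, 1291 with none), matched by gene identifier to RefSeq GRCh38.p14 for span. The brightest probe set per gene was used. Members and lists were chosen with earlier results of these data known, and the shorter stress element and the span trend after the data were seen. Every member was named, as was each further list's gene past the threshold (otherwise that of smallest p), with AGR2, XBP1, ATF4, DDIT3, ATF3 and TRIB3 always. Alternatives were quantile normalization, median centring, a filter on dim probe sets, an intensity trend, a replicate block, only the groups compared, averaged probe sets, each array left out, and the span trend.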

Additional observations from a re-analysis of the deposited data

Results flagged for a closer look

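The effects of the hairpins differed from each other, by the limma test of that difference, for 4 of the genes described. For S100A10 the log2 difference, shS100A10_5 minus shS100A10_1, was 2.70 (limma, adjusted p = 0.00102) and for ATF3 1.77 (0.00332). SIL1 had a difference of -1.10 (limma, adjusted p = 0.0244) and SSR4 of -0.80 (limma, adjusted p = 0.0496). Without shS100A10_5 replicate 2 the ATF3, SIL1 and SSR4 differences did not pass (limma, adjusted p = 0.0584, 0.129 and 0.197). No member of the folding set was among them.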

How the results depend on the processing

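The number of members past the threshold stayed at 0 for shS100A10_1 in all 14 alternatives. For shS100A10_5 it was 2 without the dimmest 25% of probe sets, 3 with an intensity trend, 1 with the replicate block and 0 to 3 with an array left out (3 without shS100A10_5 replicate 1); between the hairpins it was 2 with the trend. Over all probe sets the counts, 32, 539 and 494 in the order shS100A10_1, shS100A10_5 and the difference, were 60, 952 and 791 without the dimmest 25% and 98, 1454 and 1144 with the trend. With only the groups compared they were 16 for shS100A10_1 and 291 for the difference. With an array left out they ran from 8 to 16, 3 to 994 and 7 to 656. The members' median ran from 0.00979 to 0.0663 for shS100A10_1 and 0.0326 to 0.113 for shS100A10_5 with an array left out, and with the span trend removed it was 0.0562 for shS100A10_5 and -0.0103 for the difference. The cause was not tested. Correlations of same-numbered deviations were -0.02 (shNCT with shS100A10_1), -0.04 (shNCT with shS100A10_5) and 0.19 (shS100A10_1 with shS100A10_5). The rho with gene span was higher for replicate 2 in every group, so pairing by replicate number was not settled. With the replicate block the 3 probe set counts were 33, 625 and 561, none moved by over 1.5 times.

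Uncalled changes near 0 also turned sign by less than their SE under centring, the span trend or an array left out. Those that turned by more than their SE did so with an array left out, none past the threshold: CRELD2 (-0.0826 to 0.37) and EDEM1 (-0.39 to 0.22) for shS100A10_1; DNAJC3 (-0.0562 to 0.33), EDEM2 (-0.68 to 0.39) and EIF2AK3 (-0.11 to 0.53) for shS100A10_5; and DNAJC3 (-0.13 to 0.26), EDEM2 (-0.63 to 0.43), EIF2AK3 (-0.28 to 0.35), SDF2L1 (-0.0606 to 0.40) and DERL3 (-0.32 to 0.14) for the difference. With 2 arrays per group, a group left with 1 is assumed to vary like the others. Without detection calls in the sources used here, signal over background is unknown for dim probe sets such as that of AGR2.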
